A study of Mus musculus with 288 samples.

Results

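The lipid-sensing receptors described here were 7 of the 46078 mouse genes in the count table: Ffar1, Ffar2, Ffar3, Ffar4, Gpr119, Gpbar1 and Cnr1. They were chosen by name, for the ligands they bind, with earlier results of these data known. Their counts were read in every cell that carried at least 20000 reads on mouse genes and at most 20% mitochondrial reads. All 7 genes had a row in the table, and 250 of 288 cells met both limits. The cells were sorted from the proximal small intestine of male GLU-Venus mice aged 20 to 21 weeks, in which the proglucagon promoter drives Venus, a yellow fluorescent protein, and every cell was labelled an L-cell. This background was common to all groups, and no group received a treatment. Each cell was sorted into its own well and sequenced by Smart-seq2, a full-length cDNA method without molecular identifiers.

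Enteroendocrine cells sense the contents of the gut lumen and release peptide hormones in response. Long-chain fatty acids act on Ffar1 and Ffar4, short-chain fatty acids from bacterial fermentation act on Ffar2 and Ffar3, oleoylethanolamide and monoacylglycerols act on Gpr119, bile acids act on Gpbar1 and endocannabinoids act on Cnr1. Ffar1 and Ffar4 couple mainly to Gq, Gpr119 and Gpbar1 to Gs, Ffar3 and Cnr1 to Gi, and Ffar2 to both Gi and Gq.

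Ffar1, Ffar3 and Ffar2 lay in a row on the minus strand of chromosome 7 (mm10), at chr7:30857390-30861564, chr7:30854330-30856178 and chr7:30818348-30823775. Ffar1 and Ffar3 were separated by 1211 bases, and Ffar3 and Ffar2 by 30554 bases. Ffar4 lay at chr19:38097071-38114263 on the plus strand, Gpr119 at chrX:48667979-48674478 on the minus strand, Gpbar1 at chr1:74278550-74279624 on the plus strand and Cnr1 at chr4:33924593-33948831 on the plus strand. No other annotated gene overlapped any of the 7.

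The upstream sequences of the chromosome 7 neighbours are given because these genes are adjacent yet differed in pattern between cells, and those of Gpr119 and Cnr1 because these receptors were called different between hormone classes. Each is the stretch just before the annotated start of the gene, written 5′ to 3′ on the strand of the gene, from RefSeq on GRCm38.p6. They cover chr7:30861565-30861720 for Ffar1, chr7:30856179-30856428 for Ffar3, chr7:30823776-30824025 for Ffar2, chrX:48674479-48674728 for Gpr119 and chr4:33924394-33924592 for Cnr1. Capitals in the Ffar3 sequence mark an E-box (CAGATG, here on the reverse strand and therefore read as CATCTG) and a cAMP response element (TGACGTCA).
Ffar1: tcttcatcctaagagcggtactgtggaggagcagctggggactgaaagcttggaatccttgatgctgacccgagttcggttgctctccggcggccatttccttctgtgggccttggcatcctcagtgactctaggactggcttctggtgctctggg
Ffar3: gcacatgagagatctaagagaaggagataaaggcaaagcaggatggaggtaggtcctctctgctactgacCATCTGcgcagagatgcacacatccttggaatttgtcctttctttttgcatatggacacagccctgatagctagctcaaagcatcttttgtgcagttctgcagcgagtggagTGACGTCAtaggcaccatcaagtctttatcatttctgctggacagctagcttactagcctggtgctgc
Ffar2: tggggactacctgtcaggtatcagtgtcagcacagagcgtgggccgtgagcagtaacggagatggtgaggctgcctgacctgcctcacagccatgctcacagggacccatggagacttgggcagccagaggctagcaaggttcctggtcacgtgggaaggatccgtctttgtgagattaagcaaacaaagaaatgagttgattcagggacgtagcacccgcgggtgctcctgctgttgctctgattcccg
Gpr119: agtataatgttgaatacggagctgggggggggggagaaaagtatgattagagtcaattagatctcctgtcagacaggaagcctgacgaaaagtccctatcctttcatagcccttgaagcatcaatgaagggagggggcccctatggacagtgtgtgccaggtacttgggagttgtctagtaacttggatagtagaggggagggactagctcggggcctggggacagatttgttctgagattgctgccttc
Cnr1: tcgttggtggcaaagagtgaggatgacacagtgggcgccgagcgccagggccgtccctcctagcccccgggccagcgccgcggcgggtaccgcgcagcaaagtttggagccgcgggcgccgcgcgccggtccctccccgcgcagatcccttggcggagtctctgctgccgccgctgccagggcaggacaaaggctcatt

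The motifs were searched on both strands of the 300 bases from 250 before to 50 after the RefSeq start of all 7 genes. Ffar2 had 4 such windows and Cnr1 had 3, and the starts taken were chr7:30823775 and chr4:33924644. TGACGTCA was found only in the Ffar3 window, 68 bases before the start, and it was present in 1.79% of 32851 mouse promoters of that length. CAGATG was found in the windows of Ffar1, Ffar3 and Ffar4, and in 17.2% of all promoters. TAATTA (5.29% of all promoters), TGTTTAC (3.65%) and TATAAA (13.6%) were in none of the 7 windows.

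The cells came in 3 sequencing pools of 96, which were taken as the replicates. Pools SLX-11175 and SLX-11179 were shallow, with medians of 52571 and 70726 reads per cell, and pool SLX-9703 was deep, with a median of 1975706 reads. They kept 75, 87 and 88 cells. By the methods of the study, the cells of the deep pool were all Venus-positive, whereas the shallow pools also held Venus-negative cells. Fluorescence of single cells was not in the labels, so depth and sort cannot be told apart. Values below are given in the order SLX-11175, SLX-11179, SLX-9703.

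Cells were grouped by their hormone transcripts in CPM (a gene's reads scaled to the same total of mouse gene reads in every cell), so these genes define the classes and are no result. Gcg-high cells had at least 10000 CPM of Gcg, which encodes proglucagon, the precursor of GLP-1 (16, 18 and 19 cells). Gip-high cells had at least 10000 CPM of Gip, the incretin of K-cells (10, 5 and 10 cells). Pzp-positive cells had at least 100 CPM of Pzp, a protease inhibitor of the alpha-2-macroglobulin family (14, 22 and 28 cells). Cells that met none of these limits were Cck-high with at least 10000 CPM of Cck, the cholecystokinin gene (9, 13 and 15 cells), and hormone-poor otherwise (23, 28 and 15 cells). Cells that met more than 1 limit (3, 1 and 1 cells) entered no class. Together 184 cells carried a hormone by these limits. Of the Gip-high cells 5, 4 and 5 had at least 100000 CPM of Gip. Only 5 of the 10 deep ones had at least 750000 reads, and 2 of the 10 in SLX-11175 had at least 50000.

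The 8 endocrine markers had reads in each of the 12 sums over pool and class. In hormone-poor cells their summed level was low, with medians of 19.1, 212 and 534 CPM against 12930, 14898 and 41635 CPM in Gcg-high cells, so the label of L-cell did not hold for most of them. Leukocyte markers summed to at least 1000 CPM in 14, 9 and 3 hormone-poor cells.

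The deep pool showed how common each receptor was in hormone-bearing cells. Ffar1 was at 10 CPM or more in 67 of 73 cells, Ffar2 in 55, Ffar4 in 41, Ffar3 in 35, Gpr119 in 33, Cnr1 in 13 and Gpbar1 in 2. These shares are not scaled for the length of the genes. A Gpr119 read was lacking in 27 of 73 cells, while the highest cell had 877 CPM, so Gpr119 was high in some cells and not detected in others. An Ffar1 read was lacking in 1 of 73 cells, and the highest had 1044 CPM.

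**Figure D1:**
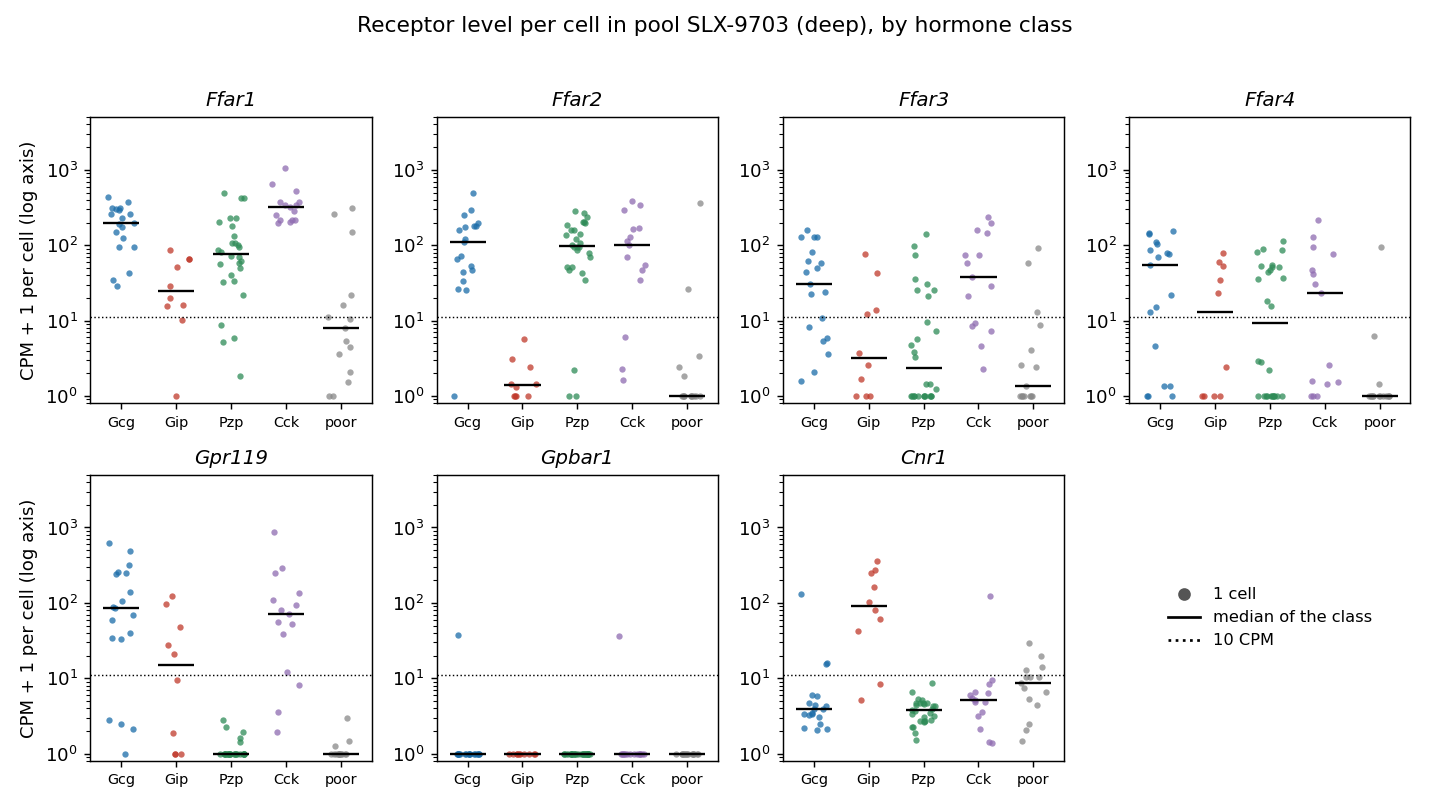
CPM + 1 on a log axis in each cell of the deep pool, by hormone class, with 1 panel per receptor; each point is a cell, bars are medians and the dotted line is 10 CPM. Gpr119 lay above the line in 15 of 19 Gcg-high and 0 of 28 Pzp-positive cells, and Ffar2 in 0 of 10 Gip-high cells.

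Levels in hormone classes were compared after counts had been summed over the cells of each pool and class. Scaled per kilobase of annotated exon, the order in Gcg-high cells was Ffar1 (50.1 CPM per kb), Gpr119 (45.7), Ffar3 (26.5), Ffar4 (25.7), Ffar2 (23.2), Cnr1 (2.24) and Gpbar1 (0.75). The first pair did not differ beyond the spread over pools (SD 11.1 and 6.71), nor did the next 3. In Gip-high cells Cnr1 (38.6 ± 15.5 CPM per kb, SD, n = 3 pools) and Ffar4 (27.2 ± 10.7) had the highest means and did not differ beyond their spread, with Ffar4 above Cnr1 in the deep pool. Ffar2 (0.37 ± 0.41) and, outside 1 cell of SLX-11179, Gpbar1 were near 0. In Pzp-positive cells Ffar2 (30.1 ± 0.39) and Ffar1 (24.5 ± 7.11) had the highest means, while Gpr119 (1.22 ± 1.54), Cnr1 (0.57 ± 0.60) and Gpbar1 (0.16 ± 0.27) were at the bottom. Ffar1 lay above Ffar2 in SLX-11175, and Ffar4 (26.2) above Ffar1 (19.9) in SLX-11179. In Cck-high cells Ffar1 (63.8 ± 22.6) and Gpr119 (44.2 ± 16.2) had the highest means, with Ffar4 above Gpr119 in SLX-11175.

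**Figure D2:**
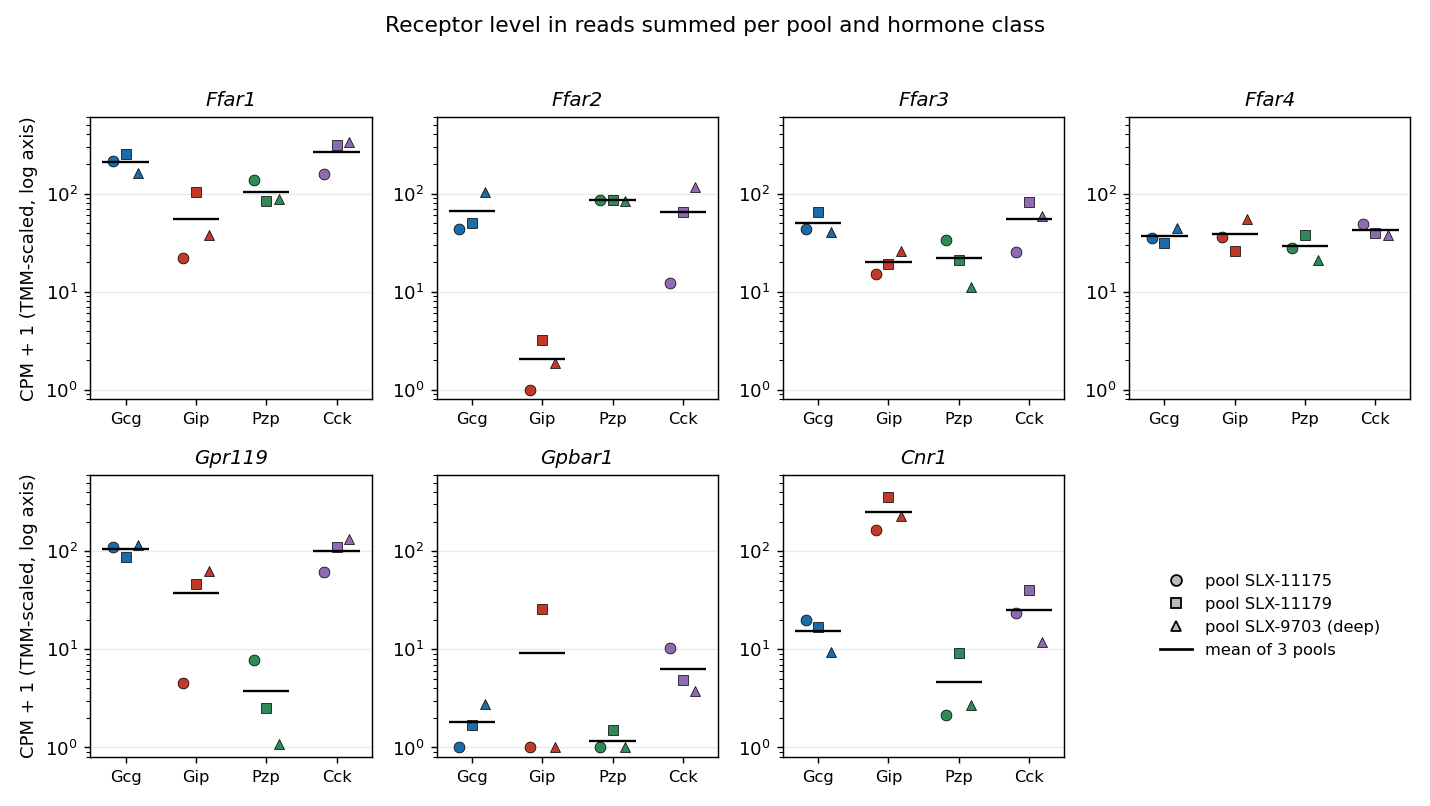
TMM-normalised CPM + 1 (log axis) of the counts summed over the cells of each pool and class, with 1 panel per receptor; marker shape is the pool and the bar is the mean of 3 pools. Cnr1 was highest in Gip-high cells in each pool (162 to 358 CPM), and Gpr119 was lowest in Pzp-positive cells on average (2.77 CPM).

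Differences between classes were tested with edgeR's quasi-likelihood test over 9834 genes, with pool as a block and Benjamini-Hochberg adjustment. The Gcg-high against Pzp-positive test called 0.305% of genes, Gip-high against Gcg-high called 1.66% and Gip-high against Pzp-positive called 3.43%. Of the 6 receptors that passed the filter on low counts, 1 was called higher in the first (0.163% of all genes higher). In the second 1 was higher and 2 lower (0.427 and 1.23% of all genes), and in the third 2 were higher and 1 lower (1.24 and 2.19%). Gpbar1 did not pass it. The contrasts share sums, so their calls are not independent. Over the tested receptors the median log2 fold change was 1.11, -1.32 and 0.24, beside 0.01, -0.21 and -0.21 over all genes.

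Ffar1, the long-chain fatty acid receptor, was present in each class. Its levels were 215.6, 251.9 and 160.0 CPM in Gcg-high cells, 158.4, 310.3 and 330.8 CPM in Cck-high cells, 136.4, 83 and 87.4 CPM in Pzp-positive cells and 21.1, 103.5 and 37.1 CPM in Gip-high cells. The Gip-high values lay below every Gcg-high value. Ffar1 fell by 2.06 on the log2 scale (SE 0.51) in Gip-high against Gcg-high cells (edgeR adjusted p = 0.0492, lower in 3 of 3 pools). This call was close to the threshold and was kept in 6 of 14 alternative settings. It was lost on leaving out any 1 pool (edgeR adjusted p = 0.179 without SLX-11175, 0.0859 without SLX-11179 and 0.241 without SLX-9703) and without the block (0.0848). Between Gcg-high and Pzp-positive cells the log2 difference of 0.97 (SE 0.47) was not called (edgeR adjusted p = 1).

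Reads of Ffar1 were found in 44 of 52, 53 of 59 and 72 of 73 hormone-bearing cells. Hormone-poor cells, which include non-endocrine cells, had one in 5 of 23, 13 of 28 and 13 of 15 cells, at median depths of 49511, 60085 and 777740 reads. In the deep pool 6 of those 15 were at 10 CPM or more. Cells with a single read therefore say little about Ffar1 at this depth, and the 10 CPM limit was used for sharing between receptors. That limit stands for fewer reads in the shallow pools. There 43 of 52 and 52 of 59 hormone-bearing cells met it for Ffar1, close to the 44 and 53 with a read.

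Ffar4, the other long-chain fatty acid receptor, was found in all 4 classes. Its levels were 34.2, 30.4 and 43.2 CPM in Gcg-high cells, 35.2, 24.8 and 54.3 CPM in Gip-high cells, 26.8, 36.7 and 20.1 CPM in Pzp-positive cells and 48.5, 38.7 and 37.2 CPM in Cck-high cells. The fitted log2 differences were 0.36 (SE 0.54) for Gcg-high against Pzp-positive, 0.11 (SE 0.54) for Gip-high against Gcg-high and 0.46 (SE 0.55) for Gip-high against Pzp-positive cells, none of which was called (edgeR adjusted p = 1, 0.959 and 0.777). Each was smaller than its standard error. The values overlapped between these 3 classes, while every Cck-high value lay above every Pzp-positive one, a pair that was not tested.

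Ffar2, the short-chain fatty acid receptor that binds acetate and propionate, was barely detected in Gip-high cells. Its levels there were 0, 2.25 and 0.87 CPM, from 10 reads over all 25 cells, against 42.8, 49.1 and 102.3 CPM in Gcg-high and 85, 84 and 82.8 CPM in Pzp-positive cells. Cck-high cells had 11.2, 63.8 and 114.6 CPM. The Gip-high values did not overlap with those of any other class.

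Ffar2 was called lower in Gip-high than in Gcg-high cells (log2 fold change -6.46, SE 0.92, edgeR adjusted p = 0.000956) and lower than in Pzp-positive cells (-7.01, SE 0.93, adjusted p = 0.000284), in 3 of 3 pools each. Because so few reads lie behind the low class, the ratio of pooled levels is given with its 95% counting interval. This interval leaves out the spread between pools. The ratio was 111-fold (60.1 to 231) against Gcg-high and 91.5-fold (49.7 to 191) against Pzp-positive cells. Without the deep pool, which held 9 of the 10 reads, the ratios were 33.7-fold (5.94 to 1342) and 61.4-fold (10.9 to 2435). The call against Pzp-positive cells was kept in 14 of 14 alternatives, and that against Gcg-high cells in 13, being lost without the deep pool (adjusted p = 0.0821). Between Gcg-high and Pzp-positive cells the log2 difference of -0.55 (SE 0.56) was not called (adjusted p = 1).

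Per cell, Ffar2 was at 10 CPM or more in 0 of 10, 0 of 5 and 0 of 10 Gip-high cells. Taking 3 divided by the number of cells as a rough upper bound gives 30, 60 and 30%. It treats cells of a pool as independent. After thinning to 20000 reads, Ffar2 was found in 1.86% of Gip-high and 74.9% of Gcg-high cells of the deep pool. In the deep pool 6 of 10 Gip-high cells had any Ffar2 read, with a median level of 0.39 CPM, whereas 18 of 19 Gcg-high cells were at 10 CPM or more with a median of 109 CPM. Hormone-poor cells of that pool had an Ffar2 read in 5 of 15. Gip-high cells also had the fewest reads per cell of the 4 hormone classes there (median 831266.5 against 2400022 in Gcg-high cells), and Gip itself took 28.1, 44.5 and 37.9% of the reads in its sums. Endocrine markers summed to medians of 1392, 3270 and 3637 CPM in Gip-high cells, with 1 of 8 markers called higher and 4 lower than in Gcg-high cells. Over all genes that test called 0.427% higher and 1.23% lower, and the test against Pzp-positive cells called 1.24 and 2.19%. Against Pzp-positive cells, 1 endocrine marker was called higher and 2 lower, and all 3 tested goblet markers (Agr2, Fcgbp and Tff3) and 2 of 6 tested enterocyte markers (Fabp2 and Sis) were lower. Goblet markers summed to medians of 0, 252 and 146 CPM in Gip-high and 8322, 8280 and 10010 CPM in Pzp-positive cells, and enterocyte markers to 148, 534 and 450 CPM and to 1935, 2171 and 3322 CPM. Against Gcg-high cells 1 of 3 goblet (Agr2) and 1 of 6 enterocyte markers (Fabp2) were lower. Of the stem markers 1 of 2 tested was called higher than in Gcg-high cells (Smoc2, at 28.2, 27 and 59.2 CPM against 0 in each pool), and the 1 tested tuft marker was lower than in Pzp-positive cells (Avil, at 0, 0 and 0.097 against 19, 16.8 and 18.8 CPM). Their part in the differences of Ffar2, Ffar1, Cnr1 and Gpr119 in Gip-high cells was not tested.

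Ffar3, which binds propionate and butyrate, had levels of 42.8, 64.4 and 39.8 CPM in Gcg-high cells and 24.2, 81.2 and 58.2 CPM in Cck-high cells. It was at 14.1, 18 and 25.1 CPM in Gip-high cells and at 32.4, 19.9 and 10.2 CPM in Pzp-positive cells. The Gcg-high values lay above those of both classes, but no difference was called. The log2 fold change was 1.24 (SE 0.61) for Gcg-high against Pzp-positive cells and -1.23 (SE 0.62) for Gip-high against Gcg-high cells (edgeR adjusted p = 1 and 0.401). Although Ffar2 and Ffar3 sense related ligands and lie on the same stretch of chromosome 7, they parted in Gip-high cells, where Ffar3 was at 10.3 ± 3.02 and Ffar2 at 0.37 ± 0.41 CPM per kb (SD, n = 3 pools).

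Gpr119, the receptor for oleoylethanolamide, separated Gcg-high from Pzp-positive cells. Its levels were 109.5, 86.5 and 115.3 CPM in Gcg-high cells and 6.71, 1.53 and 0.08 CPM in Pzp-positive cells, with no overlap. Cck-high cells, which by definition lacked high Gcg, had 59.6, 109.2 and 131.7 CPM. Gip-high cells spread widely, at 3.52, 45 and 62.1 CPM.

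In the edgeR test Gpr119 was higher in Gcg-high than in Pzp-positive cells by 6.36 on the log2 scale (SE 1.26, adjusted p = 0.0381, higher in 3 of 3 pools). The Pzp-positive sums held 16 reads in all, and the ratio of pooled levels was 653-fold (95% counting interval 402 to 1143). The deep pool held 7411 of the 7664 Gcg-high reads, and the interval leaves out the spread between pools. Without the deep pool it was 30.7-fold (15.9 to 68). The call was kept in 11 of 14 alternatives and lost without pool SLX-11179 (adjusted p = 0.438), without pool SLX-9703 (0.0714) and when the deep cells were held to at least 750000 reads (0.0590). Against Pzp-positive cells Gpr119 was also called in Gip-high cells (log2 fold change 4.96, SE 1.31, adjusted p = 0.0457, kept in 9 of 14 alternatives), but it was higher in only 2 of 3 pools and the values overlapped. That call was lost without pool SLX-11179 (adjusted p = 0.299) and without pool SLX-9703 (0.268). Gip-high and Gcg-high cells gave a log2 difference of -1.41 (SE 0.91, adjusted p = 0.55).

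Gpr119 had a read in 8 of 16, 13 of 18 and 18 of 19 Gcg-high cells and in 2 of 14, 1 of 22 and 5 of 28 Pzp-positive cells. At 10 CPM or more the deep pool held 15 of 19 Gcg-high, 12 of 15 Cck-high, 5 of 10 Gip-high and 0 of 28 Pzp-positive cells. For the last the rough upper bound, 3 divided by the number of cells, was 10.7%. After thinning to 20000 reads, the shares with a read were 65.5, 63, 33 and 0.35%. Hormone-poor cells had a Gpr119 read in 1 of 23, 0 of 28 and 3 of 15. At 10 CPM or more the shallow pools held 2 of 14 and 1 of 22 Pzp-positive cells. In the deep pool the share of Pzp-positive cells with a read was close to that of hormone-poor cells, of which only 3 had one. Their median depths differed, at 2147106 reads in Pzp-positive and 777740 in hormone-poor cells. Median depths of Gcg-high and Pzp-positive cells were close in that pool (2400022 and 2147106 reads). Goblet markers were higher in Pzp-positive cells, with summed medians of 8322, 8280 and 10010 CPM against 706, 897 and 972 CPM in Gcg-high cells. Among goblet markers 2 of 3 tested were called, beside 0.305% of all genes. Of 8 endocrine markers 1 was called, Chgb, which was higher in Gcg-high cells (14155, 13793 and 21689 against 1509, 1064 and 2468 CPM). Their part in the Gpr119 difference was not tested.

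Gpbar1, the bile acid receptor, was rarely seen. It had a read in 1 of 52, 6 of 59 and 2 of 73 hormone-bearing cells and in 1 of 23, 0 of 28 and 0 of 15 hormone-poor cells. Its summed level was 0, 0.69 and 1.74 CPM in Gcg-high, 0, 24.75 and 0 CPM in Gip-high, 0, 0.51 and 0 CPM in Pzp-positive and 9.32, 3.87 and 2.76 CPM in Cck-high cells. The single high value came from 1 of 5 Gip-high cells of pool SLX-11179. So few cells with a read allowed no order of classes.

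Cnr1, the endocannabinoid receptor CB1, was highest in Gip-high cells. Its levels were 162, 358 and 227 CPM there, against 18.8, 15.9 and 8.48 CPM in Gcg-high, 1.12, 8.15 and 1.71 CPM in Pzp-positive and 22.4, 39.6 and 10.8 CPM in Cck-high cells. All 3 Gip-high values lay above every value of the other classes.

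Cnr1 was called higher in Gip-high than in Gcg-high cells by 4.15 on the log2 scale (SE 0.56, edgeR adjusted p = 0.000571) and than in Pzp-positive cells by 6.30 (SE 0.63, adjusted p = 1.42e-05). It was higher in 3 of 3 pools in both, and both calls were kept in 14 of 14 alternatives. Gcg-high cells exceeded Pzp-positive cells by 2.16 (SE 0.57), which was not called (edgeR adjusted p = 0.178). It was called in 2 of 14 alternatives, among them DESeq2 (adjusted p = 0.0096). Over the alternatives the log2 fold change ran from 0.58 to 3.05.

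Every one of the 78 deep cells outside the Gip-high class had a Cnr1 read, including hormone-poor cells. These held a median of 6 Cnr1 reads (quartiles 4 and 8), 69 of them had at most 10, and the number did not follow the total reads of the cell (Spearman rho = -0.05 over 78 cells). Gip-high cells of the pool held a median of 98 Cnr1 reads (quartiles 28 and 337). At 10 CPM or more were 8 of 10 Gip-high, 3 of 19 Gcg-high and 4 of 15 hormone-poor cells, and hormone-poor cells had at most 12 Cnr1 reads, so that the limit is passed by a few reads in the cells with the lowest totals. After thinning to 20000 reads, Cnr1 was found in 71.2% of Gip-high, 11.9% of Gcg-high and 5.55% of Pzp-positive cells of the pool. In the shallow pools 9 of 10 and 5 of 5 Gip-high cells had a Cnr1 read, beside 11 of 23 and 13 of 28 hormone-poor cells.

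Hormone-bearing cells carried several of the receptors at once. At 10 CPM or more they had a mean of 2.75, 3.31 and 3.37 receptors of 7. Cnr1 was counted among these in 20 of 52, 30 of 59 and 13 of 73 cells. In shallow cells 1 Cnr1 read can meet the limit, so the means of shallow and deep pools are not on the same scale. Counting every read gave 2.83 ± 1.34, 3.46 ± 1.34 and 5.07 ± 1.07 (SD over cells), and thinning each cell to 20000 reads gave 2.22, 2.47 and 2.67. The excess of the deep pool seen with single reads was thus mostly absent at 20000 reads per cell, though its mean stayed the highest. The pools also differ in sort, and the part of each was not tested. Within pools the number of receptors with a read still followed depth, with Spearman rho of 0.39, 0.59 and 0.27.

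Gcg-high and Cck-high cells had more receptors than Gip-high and Pzp-positive cells in the deep pool. The means at 10 CPM were 4.26 ± 0.99 in Gcg-high (range 3 to 6), 3.93 ± 1.22 in Cck-high, 3.00 ± 1.15 in Gip-high, 2.54 ± 0.92 in Pzp-positive (range 1 to 4) and 1.07 ± 1.10 in hormone-poor cells (SD over cells of 1 pool). In pool SLX-11175 the same classes had 3.44, 3.11, 1.40, 2.43 and 0.91 receptors, and in pool SLX-11179 they had 3.83, 3.92, 2.80, 2.55 and 1.11. Gcg-high cells exceeded Pzp-positive cells in 3 of 3 pools, and the order of Gip-high and Pzp-positive cells differed between pools. At 20000 reads per cell the deep pool kept means of 3.40, 3.37, 1.99, 2.01 and 0.74.

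**Figure D3:**
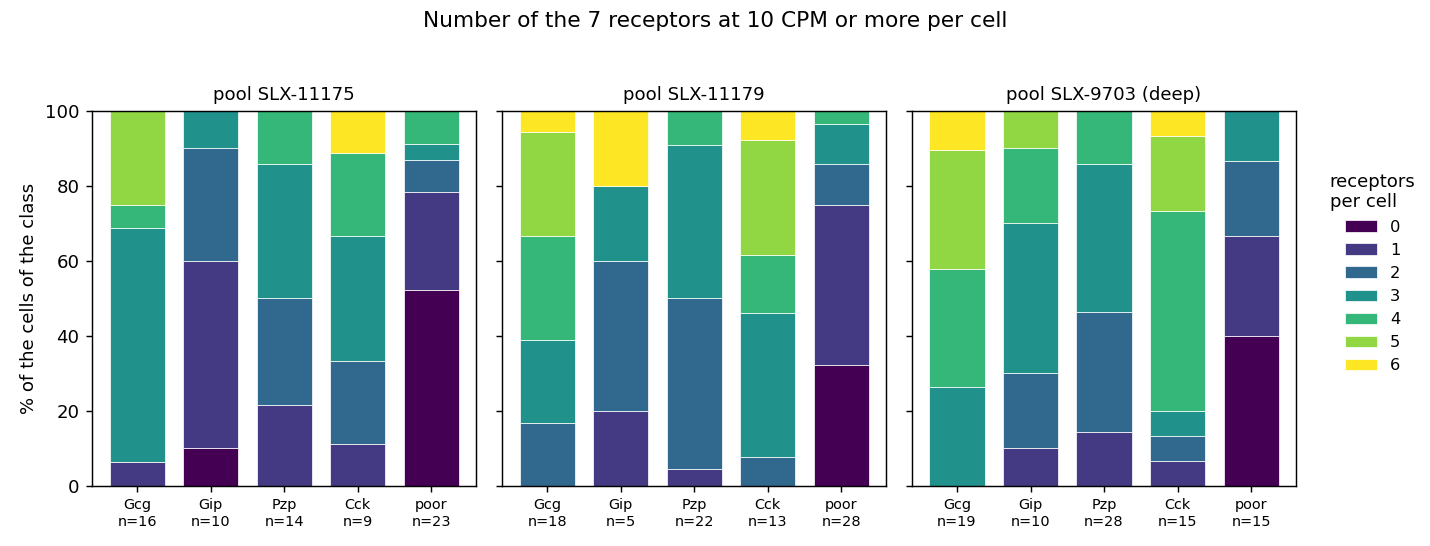
Percent of cells with 0 to 6 of the 7 receptors at 10 CPM or more, stacked by number of receptors, for each hormone class in each of the 3 pools. In the deep pool 8 of 19 Gcg-high and 0 of 28 Pzp-positive cells had 5 or more.

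At 10 CPM, 5 or more receptors were found in 4 of 16, 6 of 18 and 8 of 19 Gcg-high cells and in 1 of 9, 5 of 13 and 4 of 15 Cck-high cells. As many were found in 0 of 14, 0 of 22 and 0 of 28 Pzp-positive cells and in 0 of 23, 0 of 28 and 0 of 15 hormone-poor cells. The rough upper bounds, 3 divided by the number of cells, were 21.4, 13.6 and 10.7% for Pzp-positive and 13, 10.7 and 20% for hormone-poor cells. In the shallow pools a receptor without a read may still be present. Of 25 Gip-high cells 2 did.

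The deep hormone-bearing cells held 24 different combinations. The most frequent were Ffar1 with Ffar2 and Ffar4 (10 of 73 cells), Ffar1 with Ffar2 alone (7), all 4 fatty acid receptors (7) and all 4 together with Gpr119 (7). By class, the set of 4 fatty acid receptors with Gpr119 was found in 5 of 19 Gcg-high cells, and Ffar1 with Ffar2, Ffar3 and Gpr119 in 4 of 15 Cck-high cells. Ffar1 with Ffar2 and Ffar4 was found in 8 of 28 Pzp-positive cells and Ffar1 with Ffar2 alone in 7. Ffar1 with Cnr1 was found in 2 of 10 Gip-high cells, and in pool SLX-11175 Cnr1 was the sole receptor at that limit in 5 of 10. Those Gip-high cells had a median of 28664.5 reads, against 62648 in Gcg-high cells of the pool, and Gip took 28.1% of their reads. Other receptors may therefore be present in them without a read.

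Ffar3 was more often found in cells with Gpr119 than in those without. In the deep pool 22 of 33 hormone-bearing cells with Gpr119 also had Ffar3, against 13 of 40 cells without Gpr119 (66.7 and 32.5%). The shallow pools had the same direction, with 8 of 17 against 9 of 35 cells in SLX-11175 and 13 of 24 against 8 of 35 in SLX-11179. Within Gcg-high cells the counts were 4 of 8 against 3 of 8, 7 of 13 against 3 of 5 and 10 of 15 against 2 of 4, so that the gap was smaller or reversed there. In Cck-high cells they were 2 of 4 against 1 of 5, 5 of 7 against 2 of 6 and 9 of 12 against 1 of 3. In Gip-high cells they were 0 of 1 against 1 of 9, 1 of 2 against 0 of 3 and 2 of 5 against 2 of 5. Among Pzp-positive cells 0 of 2 with Gpr119 and 4 of 12 without it had Ffar3 in SLX-11175, and 0 of 1 and 3 of 21 in SLX-11179, while no deep cell was at that Gpr119 level. Cells of a pool are not replicates, and these shares were not tested. In the shallow pools 1 read can meet the limit, and the number of receptors with a read followed depth there (rho 0.39 and 0.59). The part of depth in this sharing, and in that of the pairs below, was not tested.

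Ffar2 was present in 52 of 67 deep cells with Ffar1 and in 3 of 6 without it. The shallow pools went both ways, with 24 of 43 against 1 of 9 cells in SLX-11175 and 30 of 52 against 5 of 7 in SLX-11179. Among cells with Ffar1, Ffar2 was found in 11 of 16, 10 of 18 and 18 of 19 Gcg-high cells and in 9 of 13, 11 of 16 and 22 of 24 Pzp-positive cells. In Gip-high cells with Ffar1 it was found in 0 of 2, 0 of 4 and 0 of 8. Ffar3 was found in 8 of 20, 12 of 27 and 24 of 41 cells with Ffar4 and in 9 of 32, 9 of 32 and 11 of 32 without Ffar4.

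Ffar2 and Cnr1 tended to be in different cells. Cnr1 was at 10 CPM or more in 4 of 55 deep cells with Ffar2 and in 9 of 18 without it. The shallow pools gave 6 of 25 against 14 of 27 and 14 of 35 against 16 of 24. Of the 9 deep cells with Cnr1 and no Ffar2, 8 were Gip-high. Within Gcg-high cells the counts ran the other way, with Cnr1 in 3 of 11 cells with Ffar2 against 1 of 5 without, 6 of 10 against 3 of 8 and 3 of 18 against 0 of 1. Cck-high cells gave 2 of 3 against 2 of 6, 3 of 9 against 4 of 4 and 1 of 12 against 0 of 3, and Pzp-positive cells gave 1 of 10 against 0 of 4, 5 of 16 against 3 of 6 and 0 of 25 against 0 of 3.

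**Figure D4:**
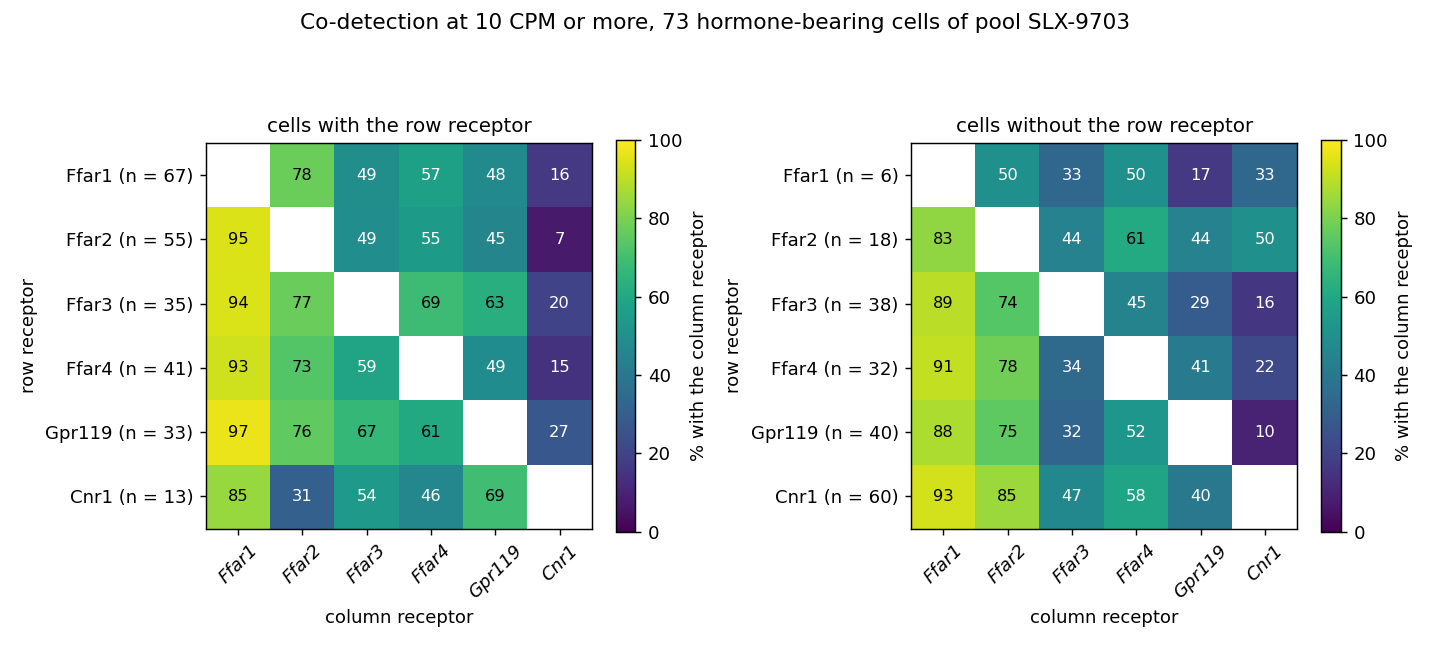
Percent of the 73 hormone-bearing cells of the deep pool that had the column receptor at 10 CPM or more, among cells with (left) and without (right) the row receptor. Ffar3 was in 66.7% of cells with Gpr119 and 32.5% of cells without, and Ffar2 in 30.8% of cells with Cnr1 and 85% of cells without.

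In the deep pool the median Gcg level was 7366 CPM in the 33 hormone-bearing cells with Gpr119 at 10 CPM or more and 335 CPM in the 40 without. Their median Pzp levels were 0.7 and 782 CPM. The highest Pzp level in any deep cell with Gpr119 at that limit was 7.9 CPM. In the shallow pools 2 of 14 and 1 of 22 Pzp-positive cells, which had at least 100 CPM of Pzp, had Gpr119 at that limit.

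For Gip, the median was 23648 CPM in the 13 cells with Cnr1 and 36 CPM in the 60 without. The 55 cells with Ffar2 had a median Gip level of 26.6 CPM and reached at most 3645 CPM, while the 18 without Ffar2 had a median of 17683 CPM. Cells with Ffar3 had a median Gcg level of 5563 CPM against 323 CPM without. The middle quartiles were wide in each case, from 874 to 148503 CPM of Gcg in cells with Gpr119.

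Rank correlations over hormone-bearing cells within each pool are given as a description over 52, 59 and 73 cells, which share library and depth. These cells were admitted by limits on Gcg, Gip, Pzp or Cck, so rho values with these genes depend on that choice. Gpr119 rose with Gcg (Spearman rho 0.38, 0.45 and 0.51) and fell with Pzp (-0.29, -0.52 and -0.66). Cnr1 rose with Gip (0.53, 0.28 and 0.52), and Ffar2 fell with Gip (-0.46, -0.37 and -0.41). Each of these had the same sign in all 3 pools among hormone-bearing cells. Ffar1 rose with Gcg (0.42, 0.28 and 0.41), as did Ffar3 more weakly in the shallow pools (0.16, 0.22 and 0.45). Ffar4 had no stable direction with Gcg (0.21, -0.05 and 0.15). Between receptors, Ffar3 and Gpr119 had 0.20, 0.26 and 0.40, and Ffar2 and Cnr1 had -0.42, -0.42 and -0.32. With hormone-poor cells included, the rho of Ffar2 with Gip in SLX-11175 was weaker. There it changed sign with at least 50000 reads per cell.

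Part of these relations lay between classes. Among the 19 deep Gcg-high cells Gpr119 and Gcg had a rho of 0.31, and among the 28 Pzp-positive cells Gpr119 and Pzp had 0.08. Cnr1 and Gip had 0.66 among the 10 Gip-high cells. In the deep pool the CPM of Cnr1 also fell with total reads (-0.54 over 88 cells), whose part in its relation with Gip was not tested.

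**Figure D5:**
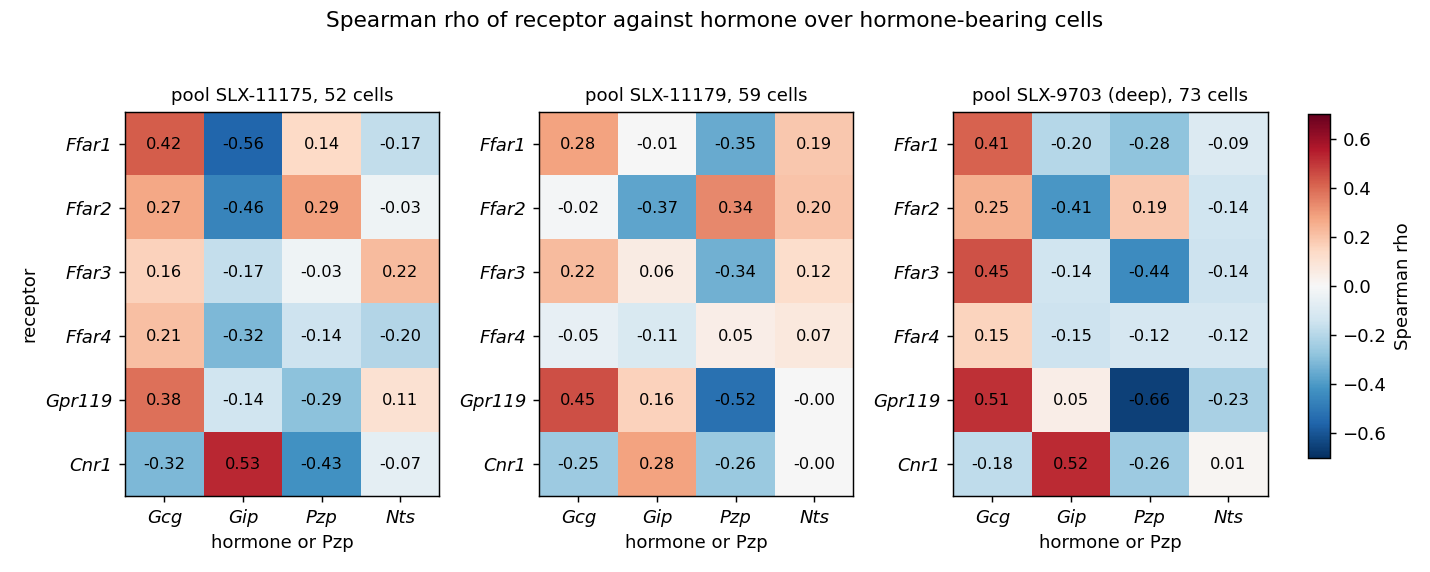
Spearman rho of the CPM of 6 receptors (rows) with Gcg, Gip, Pzp and Nts (columns) over hormone-bearing cells, with 1 panel per pool (52, 59 and 73 cells). Gpr119 had 0.38 to 0.51 with Gcg and -0.66 to -0.29 with Pzp, and the column of Nts held no value beyond 0.23 in size.

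For Nts, the neurotensin gene, no difference in a receptor was called. The Spearman rho of the 6 receptors with Nts lay between -0.23 and 0.22 in the 3 pools. Pzp-positive cells were split at 1000 CPM of Nts into 6, 3 and 9 Nts-high and 8, 19 and 19 Nts-low cells.

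These sums were scaled separately from those of the classes, so their CPM are not on the scale of the Pzp-positive values above. Ffar1 had 130.5, 125.0 and 113.9 CPM in Nts-high and 218.5, 101.5 and 114.1 CPM in Nts-low cells. Ffar2 had 109.3, 151.8 and 86.4 CPM against 110.7, 95.7 and 117.9 CPM. The values of both overlapped. Of the receptors Ffar1 to Ffar4 were tested, with log2 differences of -0.14, 0.05, 0.26 and 0.13, and none was called (edgeR adjusted p = 0.999 for each). That test called 0% of 6919 genes, with 169 genes at an unadjusted p under 0.05, and DESeq2 called 10 genes. It therefore says little about receptors in either direction.

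Other receptors of lipid ligands, such as those of prostaglandins, lysophospholipids and hydroxy acids, were mostly below the filter. Of 39 listed 8 were tested, and 0 were called between Gcg-high and Pzp-positive cells (edgeR), where 0.305% of all genes were called. In each Gip-high test 1 of the 8 was lower, beside 1.23% of all genes against Gcg-high and 2.19% against Pzp-positive cells. The list median of the log2 fold change was -0.62, 0.15 and -0.93 in the 3 tests. Ptger4, a prostaglandin E2 receptor, was lower in Gip-high than in Gcg-high cells, at 0, 2.25 and 0.39 against 29.9, 34.6 and 27.7 CPM (adjusted p = 0.0405, kept in 7 of 13 alternatives). Hcar1, the lactate receptor, had no read in Gip-high cells and 3.36, 31.6 and 20.2 CPM in Pzp-positive cells, which made it at least 74.7-fold lower with a floor of 3 counts over the class (edgeR adjusted p = 0.0334 over the 3 pools). Without the deep pool it was at least 5.52-fold lower.

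Among 28 tested G proteins and effectors, 0 were called between Gcg-high and Pzp-positive cells, where 0.305% of all genes were called (edgeR). In Gip-high cells 1 was lower than in Gcg-high cells (1.23% of all genes lower). Against Pzp-positive cells 1 was higher (1.24% of all genes higher). Grk6, a receptor kinase, was lower in Gip-high than in Gcg-high cells (0, 0 and 0.19 against 20.5, 6.23 and 15.7 CPM, edgeR adjusted p = 0.0461, kept in 6 of 13 alternatives). Itpr1, an IP3-gated calcium channel, was higher in Gip-high than in Pzp-positive cells (77.5, 65.3 and 119 against 35.8, 12.7 and 19.9 CPM, adjusted p = 0.0456, kept in 5 of 14). Over the list the median log2 fold change was 0.20, 0.09 and -0.32 in the 3 tests.

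The enzymes that make and break down endocannabinoids and acylethanolamides, the ligands of Cnr1 and Gpr119, had 10 tested genes. Of these 0 were called between Gcg-high and Pzp-positive cells and 0 between Gip-high and Gcg-high cells (edgeR, all genes 0.305 and 1.66%). Against Pzp-positive cells 1 was lower in Gip-high cells, where 2.19% of all genes were lower. The list median of the log2 fold change was -0.24, -0.32 and -0.11. Mgll, which hydrolyses monoacylglycerols including 2-arachidonoylglycerol, was at 3.52, 92.3 and 18.8 CPM in Gip-high and 172, 153 and 188 CPM in Pzp-positive cells (log2 fold change -2.63, edgeR adjusted p = 0.033). The Gip-high values were all lower, and pool SLX-11179 stood above both other pools.

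Of 15 tested genes of fat digestion and uptake, 2 were higher and 1 lower in Gip-high than in Gcg-high cells (all genes 0.427% higher and 1.23% lower), and 3 were higher and 1 lower than in Pzp-positive cells (all genes 1.24 and 2.19%). The list median of the log2 fold change was 0.22 and 0.78, beside -0.21 over all genes in both. Fabp5, a fatty acid binding protein, was at 803, 1433 and 2276 CPM in Gip-high cells, 24, 15.9 and 32.5 CPM in Gcg-high cells and 35.8, 12.2 and 19.9 CPM in Pzp-positive cells (edgeR adjusted p = 1.19e-05 and 8.94e-06). No value overlapped.

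Scarb1, a scavenger receptor for lipoproteins and lipids, was at 215, 74.3 and 373 CPM against 6.84, 16.6 and 3.86 CPM in Gcg-high and 2.24, 0 and 3.92 CPM in Pzp-positive cells (edgeR adjusted p = 0.0276 and 0.00256). Nr1h4, the nuclear bile acid receptor FXR, was higher than in Pzp-positive cells (17.6, 54 and 25.9 against 0, 0 and 4.65 CPM, adjusted p = 0.0256). Fabp2, the intestinal fatty acid binding protein, went the other way, at 17.6, 232 and 156 CPM in Gip-high, 759, 1326 and 783 CPM in Gcg-high and 1018, 902 and 658 CPM in Pzp-positive cells (adjusted p = 0.0103 and 0.00682). Gip-high cells had more Fabp5, Scarb1 and Cnr1 and less Fabp2 and Ffar2 than both other classes. The Fabp5 calls were kept in 14 of 14 alternatives, those of Fabp2 in 13 and 14, those of Scarb1 in 10 and 13, that of Mgll in 9 of 14, that of Nr1h4 in 9 of 13 and that of Hcar1 in 9 of 12.

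The genes whose levels followed each receptor most closely were sought over the 88 cells of the deep pool among 12194 genes, and their Spearman rho is given there and then in pools SLX-11175 and SLX-11179. These rho values include differences between endocrine and hormone-poor cells and carry no test. For Ffar1 they were Chga (0.76, 0.64 and 0.66) and Chgb (0.66, 0.71 and 0.66), the granins of secretory granules, and Qdpr (0.61, 0.62 and 0.34). For Ffar2 they were Scg2, another granin (0.58, 0.62 and 0.70), Kdelr2 (0.58, 0.43 and 0.23) and Parm1 (0.58, 0.67 and 0.61). Gpr119 was most like Prune2 (0.65, 0.36 and 0.44), Chgb (0.60, 0.38 and 0.59) and Sphkap (0.60, 0.49 and 0.56).

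Ffar3 was nearest to Ubqln2 (0.58, 0.20 and 0.24), Chgb (0.55, 0.28 and 0.51) and Ocrl (0.54, 0.14 and 0.15). Ffar4 was nearest to Tbce (0.48, -0.06 and -0.01), Cd81 (0.48, 0.48 and 0.37) and Suds3 (0.47, 0.36 and 0.22), of which Tbce was near 0 in both shallow pools. Cnr1 was nearest to Gm4034 (0.60, 0.20 and 0.23), Scn4b (0.58, 0.26 and 0.16) and Gm42910 (0.58, 0.33 and 0.31). The CPM of Cnr1 fell with the total reads of the cell over these 88 cells (rho -0.54), and those of Gm4034, Scn4b and Gm42910 fell more steeply (-0.82, -0.89 and -0.78), so these 3 likenesses cannot be told apart from depth. For the genes nearest to the other receptors the rho with total reads was positive, between 0.17 and 0.55, and its part was not tested.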

How the data were processed

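The authors aligned reads with GSNAP (2015-09-29) to mm10 and counted them per gene with HTSeq (0.5.3p3); they deposited whole-number counts of 46078 mouse genes and 92 spike-ins per cell. Lines that name no gene held 77.6% of reads and were left out, as were 4 columns of no listed sample. Counting was not stated to use strand, and reads without molecular identifiers are not independent molecules, so intervals and floors cover counting error only. No doublet caller was run. Counts were summed over the cells of each pool and class (at least 3 cells), so deep cells weigh more, and compared with edgeR 4.0.16 in R 4.3.3 (quasi-likelihood test, TMM, filterByExpr, pool as block, false discovery rate 0.05), after a test on simulated data. The 3 pools were taken as the 3 mice; the labels do not tie them, so p-values measure the spread between pools. CPM of single cells were relative to reads on mouse genes, and fold changes were computed from the counts. Shares of cells and sharing between receptors were read unthinned, at 1 read or 10 CPM, and those given as thinned after hypergeometric thinning to 20000 reads. Alternatives used DESeq2 1.42.0, limma 3.58.1 on log2(CPM + 1), other limits and pools left out. The limit of 100000 CPM for Gip was chosen after seeing the data. The receptors and gene lists were chosen with earlier results of these data known. Named were all 7 receptors, up to 6 called genes of each list, and the 3 genes closest to each receptor. Promoters and motifs were read with Python 3.11.15, the motifs chosen with the sequences known.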

Additional observations from a re-analysis of the deposited data

How the results depend on the processing

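The calls of Cnr1 and Ffar2 described for Gip-high against Pzp-positive cells, and of Cnr1 against Gcg-high cells, held in 14 of 14 alternatives. Of 302 alternative values of a receptor's log2 fold change, 252 kept direction and side of the threshold, 17 lost a call, 5 gained one and 28 changed sign without a call in either fit; the cause was not tested. The number of genes called depended more on the processing. Pool served as the replicate block, since the numbers in the sample names only name wells. Without the replicate block, 16, 126, 271 and 0 genes were called for Gcg-high against Pzp-positive, Gip-high against Gcg-high, Gip-high against Pzp-positive and Nts-high against Nts-low cells, against 30, 163, 337 and 0 with it. In the same order DESeq2 called 138, 615, 876 and 10 genes, limma 121, 1486, 2170 and 1, and edgeR without the filter on low counts 79, 337, 536 and 4. Leaving out 1 pool gave 9 to 16, 47 to 87, 118 to 162 and 0 to 5. For Gcg-high against Pzp-positive, thinning gave 66 genes, a Pzp limit of 300 CPM 50 and hormone limits of 1000 CPM 15. A minimum of 50000 reads per cell, which also left 2 Gip-high cells in SLX-11175 and so dropped that sum, gave 72 and 216 genes for Gip-high against Gcg-high and Pzp-positive cells. The Nts comparison gave 1 gene after thinning and 1 with the Pzp limit of 300 CPM.

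The log2 fold changes that turned sign were all uncalled; ranges are those over leaving out 1 pool. For Gcg-high against Pzp-positive Ffar4 came to -0.20 after thinning. For Gip-high against Gcg-high Ffar4 came to -1.64 with limma, -0.047 without the filter and -0.092 to 0.16. For Gip-high against Pzp-positive Ffar4 came to -0.15 after thinning, -0.96 with limma and -0.053 to 0.92. Ffar3 in that comparison came to -0.30 with a Gip limit of 100000 CPM, -0.020 with at most 10% mitochondrial reads, -0.61 after thinning, -0.074 with hormone limits of 1000 CPM, -0.22 with limma, -0.16 without the filter, -0.034 without the replicate block and -0.71 to 0.50. In the Nts comparison Ffar1 came to -0.37 to 0.049. Ffar2 came to -0.035 with at least 50000 reads, -0.34 after thinning and -0.27 to 0.33. Ffar3 came to -0.72 with the Pzp limit of 300 CPM and -0.14 to 0.91. Ffar4 came to -0.70 with that limit, -0.34 with hormone limits of 1000 CPM and -0.81 to 0.82.

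Thinning to 20000 reads moved the share of deep Gcg-high cells with a Gpr119 read from 94.7 to 65.5%. The mean number of receptors in deep hormone-bearing cells moved from 5.07 at 1 read to 3.37 at 10 CPM and 2.67 after thinning. The rho of Gpr119 with Gcg over all deep cells stayed at 0.49 to 0.53. Of the alternative values of a receptor's rho with a hormone, 41 stayed within the spread and 13 moved, and 1 changed sign: Ffar2 with Gip over all cells of SLX-11175 went from -0.13 to 0.03 with at least 50000 reads per cell. Zero values in the shallow pools are limited by depth, and a gene without a read may be present there.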
